A study of Homo sapiens with 2 samples.

Results

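The RAB GTPases and their TBC1D regulators were examined in Huh7, an established line of human liver cancer cells, after a knockdown of CD133. Members were the genes whose platform symbol is RAB followed by a digit, which takes in the RAB3GAP and RAB11FIP genes, or starts with TBC1D. Pseudogenes were left out. A gene needed a probe with a value on both arrays, and where several probes had one, the probe of highest mean intensity stood for the gene. This gave 81 genes of 11579 named genes: 45 RAB GTPases, 9 RAB regulators and effectors, and 27 TBC1D genes. A further 27 platform symbols that meet the rule had no value on these arrays and were not analysed here, among them RAB14, RAB20, RAB25 and TBC1D1.

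Both groups were Huh7 cells infected with a lentivirus, which encoded a hairpin RNA directed at CD133 (shCD133, 1 array) or was the lentiviral vector (vector, 1 array). The labels do not say whether the vector carries a non-targeting hairpin, and they name no further hairpin against CD133. The RNA was measured with Illumina bead arrays, where beads that carry a gene's probe brighten with the amount of its transcript. With 1 array per group there is no replicate error and no test, so every difference below describes these 2 arrays. Differences are log2 intensity in shCD133 minus that in vector, and a gene was counted as different at 2-fold, a difference of 1.

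RAB proteins are small GTPases that mark membrane compartments. Bound to GTP they recruit effectors such as tethers and motor adaptors, and bound to GDP they are held in the cytosol by a dissociation inhibitor. Guanine nucleotide exchange factors (GEFs) switch them on, and GTPase-activating proteins (GAPs), most of which carry a TBC domain, switch them off. In hepatocytes they direct the secretion of plasma proteins and lipoproteins, the sorting of receptors and transcytosis to the canalicular membrane.

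PROM1, the gene of CD133, had a log2 intensity of 10.83 in shCD133 cells and 13.58 in vector cells, a difference of -2.75 (6.72-fold lower) on its only probe. Of the hepatocyte markers, 9 of 10 had a value. Albumin (ALB) was at 15.47 in shCD133 cells and 15.48 in vector cells, and the differences of the 9 ran from -1.32 (the fibrinogen chain FGB, with -0.71 on its other probe) to 0.63 (APOA1), with a median of 0.16. Of 18 markers of fibroblasts, leukocytes, endothelium and bile duct, 10 had a value. The 5 fibroblast markers differed by -0.01 (LUM) to 0.94 (the collagen gene COL1A2), with COL1A1 at 0.74. Of the leukocyte markers, CD14, a monocyte receptor, differed by 1.60, and LYZ, lysozyme, by -0.17 on its brighter probe and 1.51 on its other. The endothelial marker PECAM1 differed by -0.16, and the bile duct markers SOX9 and KRT19 by 0.23 and 0.45. The part of other cells in the results was not tested. In such bulk RNA, fewer cells with a transcript and less of it per cell cannot be told apart. The one error that can be measured is how far probes of the same gene disagree. It was an SD of 0.33 per probe over 2907 genes, and was 0.40 where the dimmer probe was under a log2 intensity of 8 and 0.13 at 12 or more.

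The members spread over both directions, from RAB22A at -2.37 to RAB17 at 0.98. Their median difference was 0.13, beside 0.11 for all named genes. Of the 81 members, 7 (8.64%) were at least 2-fold lower with shCD133, against a background of 8.26% of all named genes. None was at least 2-fold higher, where the background was 2.08%. At 1.5-fold, 16 members (19.8%) were lower, where the background was 16.3%. The 12 higher members were 14.8%, where the background was 12.3%. At 2-fold the share of lower members lay near that of all genes. The quartiles of the members were -0.16 and 0.47, and those of all named genes -0.30 and 0.39. Of the members 51 lay above 0 (63.0%), as did 59.2% of all named genes.

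**Figure D1:**
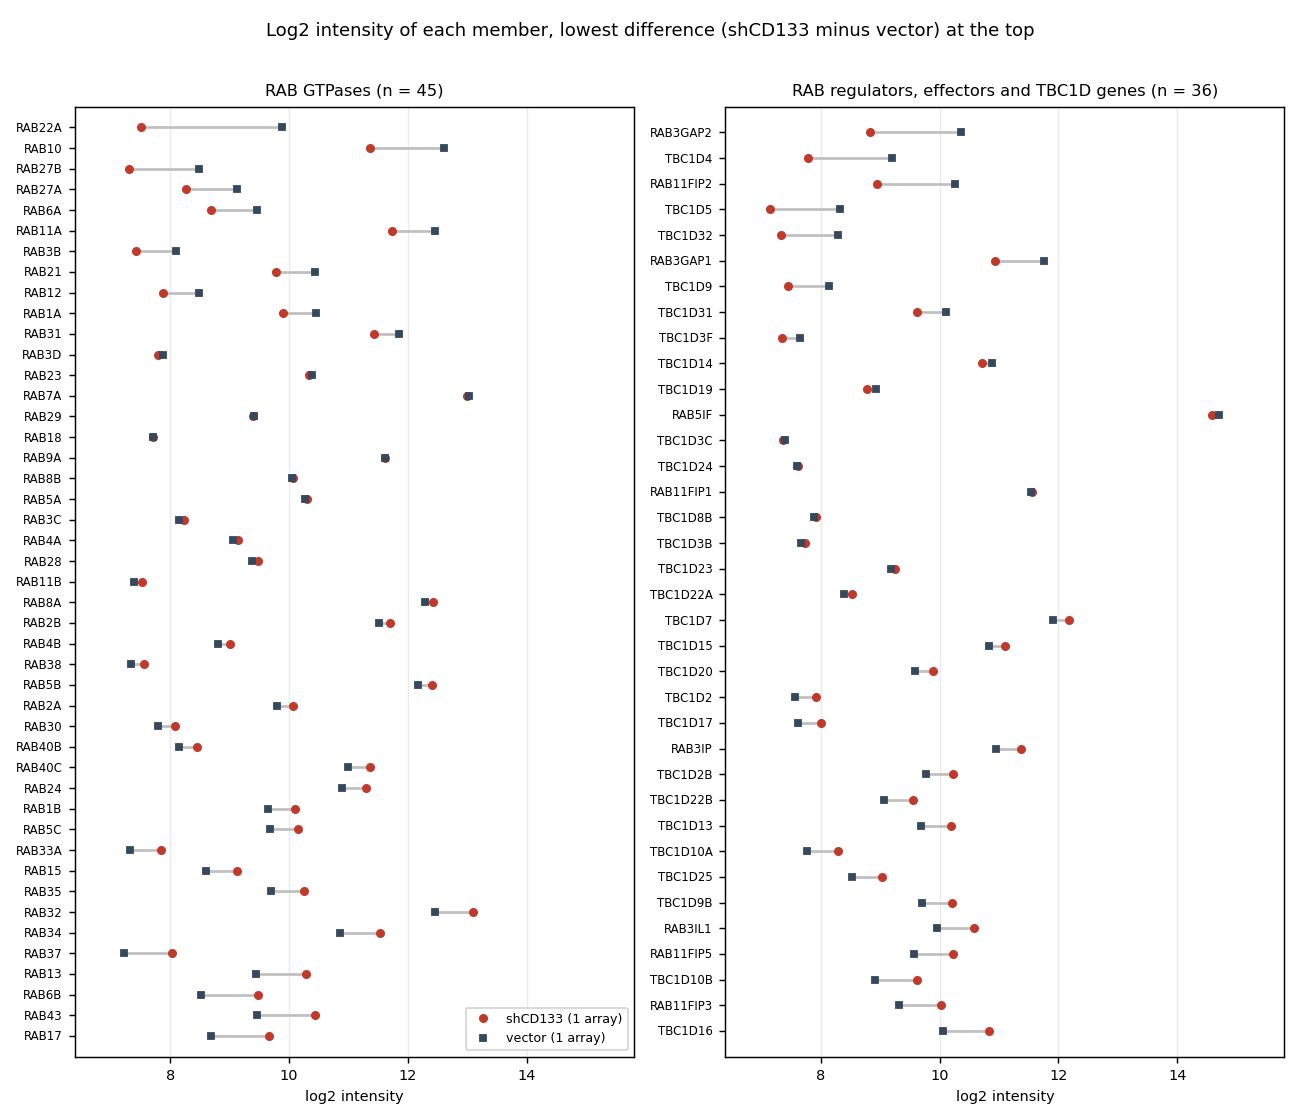
Log2 intensity of the 81 members on the shCD133 array (red circles) and the vector array (dark squares), with RAB GTPases on the left and the other members on the right, sorted by difference. The lines to the left of the squares are longest for RAB22A, RAB3GAP2 and TBC1D4, and no member lies 2-fold above its vector value.

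RAB22A, a GTPase of early endosomes that guides cargo into recycling tubules, had the lowest difference. Its log2 intensity was 7.51 in shCD133 cells and 9.88 in vector cells, a difference of -2.37 or 5.17-fold lower. RAB3GAP2 encodes the regulatory subunit of the RAB3GAP complex, which inactivates RAB3 and is the exchange factor of RAB18. It stood at 8.82 in shCD133 cells and 10.36 in vector cells, a difference of -1.54 or 2.91-fold lower. TBC1D4 (also AS160), an Akt substrate that restrains the surface delivery of the glucose transporter GLUT4 in fat and muscle, had 7.78 in shCD133 cells and 9.20 in vector cells, a difference of -1.42. These 3 members were read by 1 probe each.

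RAB11FIP2, an effector that links RAB11 vesicles to myosin V, was the only one of the 7 lower members with a second probe. Its brighter probe read 8.95 in shCD133 cells and 10.27 in vector cells, a difference of -1.31, and its other probe differed by -1.10. RAB10, which acts in basolateral exocytosis and in GLUT4 delivery, had 11.35 in shCD133 cells and 12.60 in vector cells, a difference of -1.25. At this brightness, 10 to 12, the SD per probe was 0.22. RAB27B, a GTPase of regulated secretion and exosome release, had 7.31 in shCD133 cells and 8.48 in vector cells, and TBC1D5, a retromer-bound GAP of RAB7, had 7.14 in shCD133 cells and 8.32 in vector cells. Both differed by -1.18. On the shCD133 array RAB22A, TBC1D4, RAB27B and TBC1D5 lay under 8, near the lowest value in the data, 6.65, where differences are compressed. With a constant background subtracted they differed by -3.21, -1.94, -1.98 and -2.17.

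The promoters of the 2 lowest and the 2 highest members are shown here because these genes bound the range of the family, from 250 bases before the start to 50 after it. They are RefSeq sequences of GRCh38.p14, read 5′ to 3′ on the gene's strand. Capitals mark ACGTG, the core of the hypoxia response element, CACGTG, the E-box that contains it, and TTCNNNGAA, a STAT site, on either strand.
RAB22A (chr20:58309465-58309764, plus strand): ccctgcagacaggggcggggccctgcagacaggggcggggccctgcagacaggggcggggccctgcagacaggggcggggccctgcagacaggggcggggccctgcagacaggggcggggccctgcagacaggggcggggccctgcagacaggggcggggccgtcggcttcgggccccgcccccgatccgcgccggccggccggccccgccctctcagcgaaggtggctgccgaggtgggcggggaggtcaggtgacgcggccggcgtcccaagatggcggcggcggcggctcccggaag
RAB3GAP2 (chr1:220272404-220272703, minus strand): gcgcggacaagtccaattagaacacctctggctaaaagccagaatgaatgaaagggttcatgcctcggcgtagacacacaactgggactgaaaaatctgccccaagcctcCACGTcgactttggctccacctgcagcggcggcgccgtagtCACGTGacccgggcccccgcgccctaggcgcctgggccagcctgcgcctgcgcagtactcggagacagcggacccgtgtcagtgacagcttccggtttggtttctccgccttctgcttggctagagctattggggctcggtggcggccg
RAB43 (chr3:129121873-129122172, minus strand): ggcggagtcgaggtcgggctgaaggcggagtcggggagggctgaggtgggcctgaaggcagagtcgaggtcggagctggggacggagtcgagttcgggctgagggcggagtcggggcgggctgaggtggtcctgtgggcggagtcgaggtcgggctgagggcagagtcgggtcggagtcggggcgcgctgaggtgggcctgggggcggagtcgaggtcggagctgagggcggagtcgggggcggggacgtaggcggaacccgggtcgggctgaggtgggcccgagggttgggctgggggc
RAB17 (chr2:237590685-237590984, minus strand): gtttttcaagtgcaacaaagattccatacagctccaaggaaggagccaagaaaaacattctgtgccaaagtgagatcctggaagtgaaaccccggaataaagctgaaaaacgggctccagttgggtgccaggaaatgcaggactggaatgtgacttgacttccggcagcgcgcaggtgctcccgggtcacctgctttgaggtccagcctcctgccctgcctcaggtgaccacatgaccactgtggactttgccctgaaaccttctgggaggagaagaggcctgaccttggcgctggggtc
The RAB22A window opens with 8 copies of the 20-base word ccctgcagacaggggcgggg and has a GC content of 80.3%, against a median of 65.5% over the 68 members with a promoter in the table. RAB3GAP2 alone of the 4 holds a match, 1 E-box and, counting both strands and the E-box itself, 3 matches to ACGTG. Over the 68 member promoters, 41.2% held ACGTG, compared with 27.3% of the 9356 promoters of named genes. The E-box was in 19.1% of member promoters and 10.4% of those of named genes, and the STAT site in 2.94% and 6.35%. TBC1D3B, TBC1D3C and TBC1D3F, near-identical copies, each held ACGTG and the E-box. They count separately among the 28 members with ACGTG and the 13 with the E-box, which raises both member shares. The median difference of members with ACGTG was 0.05, and of those without it 0.29. No matching medians were taken over all named genes, and the motifs were chosen after values were seen. Whether the motif bears on the difference was not tested. Among the 6 lower members with a promoter in the table, 2 held ACGTG (RAB3GAP2 and RAB11FIP2).

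**Figure D2:**
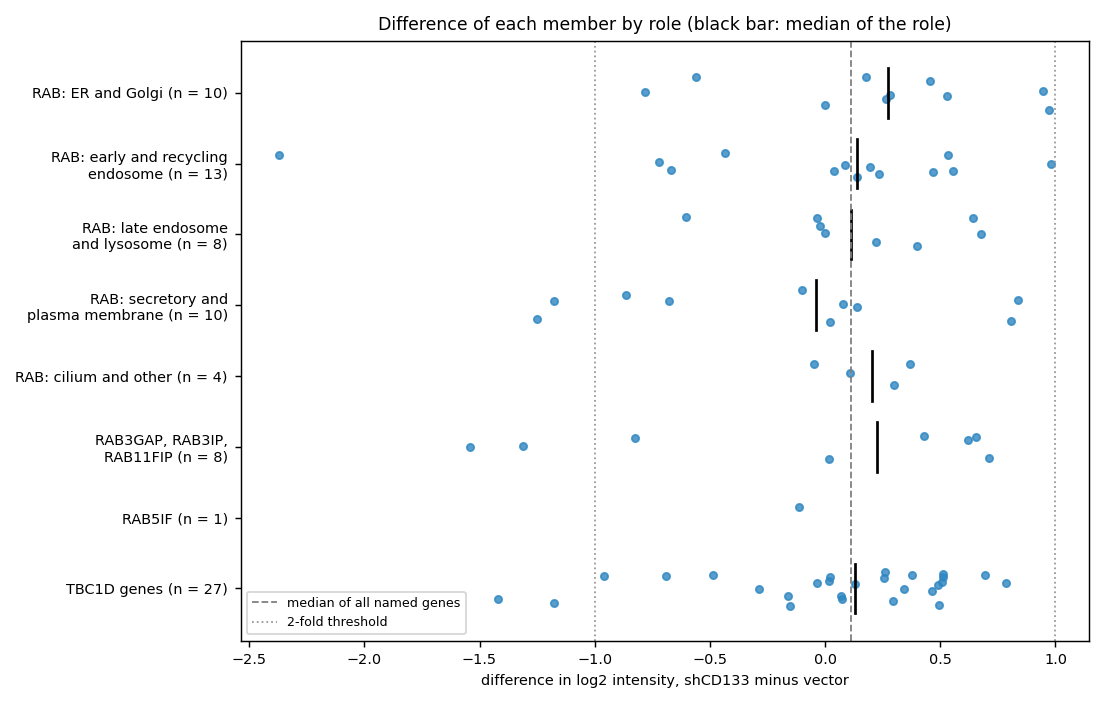
Difference in log2 intensity, shCD133 minus vector, of each member (points) by role, with the median of each role (black bars), the 2-fold thresholds (dotted) and the median of all named genes, 0.11 (dashed). The lower members come from 4 of the roles, and the secretory and plasma membrane RABs are the role of RAB GTPases whose median, -0.04, lies below 0.

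The RABs of the endoplasmic reticulum and Golgi had a median difference of 0.27 over 10 genes, 7 of which lay above 0, and none was 2-fold different. Of the 11579 named genes, 10382 were also within 2-fold. RAB43, a Golgi GTPase, had 10.43 in shCD133 cells and 9.45 in vector cells, a difference of 0.97, but its dimmer probes differed by 0.37 and 0.29 only. RAB6B, the form of the Golgi GTPase RAB6 that is abundant in neurons, had 9.47 in shCD133 cells and 8.53 in vector cells, a difference of 0.95. Its relative RAB6A, which is made in most cells, had 8.68 in shCD133 cells and 9.46 in vector cells, a difference of -0.78. RAB1A and RAB1B, which both drive traffic from the endoplasmic reticulum to the Golgi, differed by -0.56 and 0.46. RAB18, a GTPase of lipid droplets and the endoplasmic reticulum, was at 7.72 on both arrays, near the lower end of the scale, where differences are compressed. RAB2B differed by 0.18 and RAB2A by 0.26, although the other RAB2A probe differed by -0.38. RAB33A differed by 0.53 and RAB30 by 0.28.

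Of the 13 RABs of early and recycling endosomes, RAB22A was the only one 2-fold different (7.69%, beside 8.26% of all named genes lower). The median was 0.14. RAB17, an epithelial GTPase of apical recycling and transcytosis, had the highest difference of all members, 0.98, with 9.67 in shCD133 cells and 8.69 in vector cells. RAB11A, the main GTPase of recycling endosomes, had 11.74 in shCD133 cells and 12.46 in vector cells, a difference of -0.72, whereas RAB11B differed by 0.14 near the lower end of the scale (7.53 in shCD133 cells and 7.40 in vector cells). RAB21, which carries integrins, differed by -0.67 and RAB31 by -0.44. The RAB5 forms, which control fusion of early endosomes, lay at 0.04 (RAB5A), 0.23 (RAB5B) and 0.47 (RAB5C). The fast-recycling forms RAB4A and RAB4B differed by 0.09 and 0.20, and RAB35 and RAB15 by 0.55 and 0.53.

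The 8 RABs of late endosomes, lysosomes and related organelles were within 2-fold, as were 10382 of the 11579 named genes. Their median was 0.11 and their range -0.60 to 0.68. RAB7A, the GTPase of late endosome fusion with lysosomes, had 13.00 in shCD133 cells and 13.03 in vector cells. RAB9A, which returns mannose 6-phosphate receptors to the Golgi, was at 11.61 on both arrays, and RAB29, a partner of the kinase LRRK2, differed by -0.02. The largest differences were those of RAB34 (0.68), RAB32 (0.64) and RAB12 (-0.60). RAB32, which with RAB38 serves lysosome-related organelles, had 13.10 in shCD133 cells and 12.46 in vector cells. RAB24, which takes part in autophagy, was read by 5 probes, all of them above 0, from 0.05 to 0.71.

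The secretory and plasma membrane RABs held 2 of the 7 lower members, RAB10 and RAB27B, and had a median of -0.04 over 10 genes. These 2 of 10 stand beside backgrounds of 8.26% of all named genes and 19.7% of those of 82.7 to 585 kb, a range that holds 5 of the 10. RAB27A, the relative of RAB27B that docks secretory vesicles, had 8.26 in shCD133 cells and 9.12 in vector cells, a difference of -0.86. RAB3B, a GTPase of regulated exocytosis, differed by -0.68, RAB3D by -0.10 and RAB3C by 0.08. In the other direction RAB13, which delivers proteins to tight junctions, had 10.29 in shCD133 cells and 9.45 in vector cells, a difference of 0.84. RAB37, which acts in secretory granules, had 8.03 in shCD133 cells and 7.22 in vector cells, a difference of 0.81. The forms of RAB8, which serve exocytosis and cilia, differed by 0.14 (RAB8A) and 0.02 (RAB8B). The remaining RABs, of cilia and ubiquitin ligases, ranged from -0.05 to 0.37, with RAB40C at 0.37, RAB40B at 0.30, RAB28 at 0.11 and the Hedgehog regulator RAB23 at -0.05.

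Regulators and effectors named after RABs spread in both directions. RAB3GAP1, the catalytic partner of RAB3GAP2, had 10.93 in shCD133 cells and 11.76 in vector cells, a difference of -0.82 that did not reach 2-fold. Of the 4 RAB11FIP genes, RAB11FIP2 was 2.48-fold lower, RAB11FIP1 differed by 0.02, and RAB11FIP3, which acts at the midbody in cytokinesis, and RAB11FIP5 differed by 0.71 and 0.66. The RAB8 exchange factor RAB3IP (Rabin8) differed by 0.43 on its brighter probe and by -0.80 on its other, so its direction was not settled, and its relative RAB3IL1 differed by 0.62. RAB5IF, named for an interaction with RAB5, had 14.59 in shCD133 cells and 14.70 in vector cells.

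The 27 TBC1D genes had a median difference of 0.13, and 18 of them lay above 0. TBC1D4 and TBC1D5 were 2-fold lower (7.41% of the 27, beside the background of 8.26%). Just outside the threshold was TBC1D32, which is needed for cilia and Hedgehog signalling, with 7.34 in shCD133 cells and 8.30 in vector cells, a difference of -0.96, and -0.37 on its other probe. TBC1D9 followed at -0.69 and TBC1D31 at -0.49. The highest were TBC1D16, a GAP of RAB4, with 10.84 in shCD133 cells and 10.06 in vector cells (0.78), and TBC1D10B (0.69). TBC1D7, the third subunit of the TSC complex that restrains mTORC1, had 12.17 in shCD133 cells and 11.92 in vector cells, a difference of 0.26. TBC1D15, a RAB7 GAP at mitochondria, also differed by 0.26, and TBC1D20, a RAB1 GAP, by 0.29. TBC1D14, which acts in autophagy, differed by -0.16. TBC1D3B (0.07), TBC1D3C (-0.04) and TBC1D3F (-0.29) are near-identical copies, and their separate values are uncertain. Without them the TBC1D median was 0.26.

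Close relatives lay apart in some groups and together in others. Across 17 groups of paralogs with at least 2 measured members there were 21 pairs, with a median gap of 0.36 between their differences. In 10 pairs the gap was smaller than 0.33, the SD per probe, and in 4 it exceeded 1. A gap holds the error of 2 probes, so this SD is a narrow measure for it. The widest gaps were those of RAB22A and RAB31 (1.93), RAB6A and RAB6B (1.73), TBC1D9 and TBC1D9B (1.20), and RAB1A and RAB1B (1.02). The members of 6 pairs lay on opposite sides of 0. RAB27A and RAB27B, and RAB3GAP1 and RAB3GAP2, lay on the same side, with gaps of 0.31 and 0.72. RAB3GAP1 and RAB3GAP2 were counted among the groups and pairs, although they are subunits of a complex rather than paralogs. RAB8A and RAB8B, RAB4A and RAB4B, RAB2A and RAB2B, and RAB40B and RAB40C had the narrowest gaps, at 0.12, 0.11, 0.09 and 0.07. The next was that of TBC1D2 and TBC1D2B (0.12). The RAB2A gap rests on its brighter probe, and its other probe differed by -0.38.

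**Figure D3:**
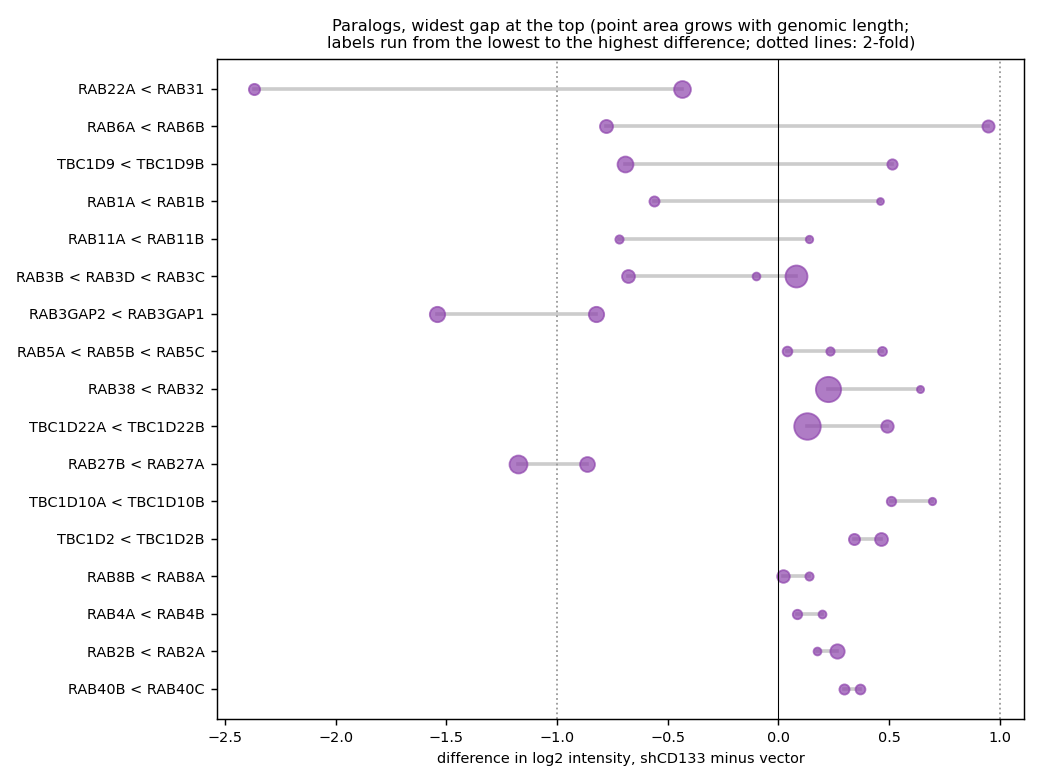
Difference in log2 intensity, shCD133 minus vector, for the 17 groups of paralogs, sorted by the gap between their members, with point area growing with genomic length. RAB22A and RAB31 are 1.93 apart and RAB40B and RAB40C 0.07 apart. The groups include RAB3GAP1 and RAB3GAP2, which are subunits of a complex rather than paralogs.

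Of the 7 lower members, 5 were among the 27 longest members. The 7 lower members had genomic lengths of 42.0 kb (RAB11FIP2) to 585 kb (TBC1D5) and a median of 124 kb, against a median of 43.3 kb for all members and 27.4 kb for all named genes. Among the 27 shortest members (2.52 to 27.1 kb) the median difference was 0.26 and none was 2-fold lower, where 2.97% of the named genes of that length range were. Among the 27 of middle length (29.9 to 78.2 kb) the median was 0.09 and 2 were 2-fold lower (RAB22A and RAB11FIP2), beside 10.0% of named genes in the range. Among the 27 longest (82.7 to 585 kb) the median was -0.16 and 5 were 2-fold lower, beside 19.7% of named genes. Length and difference had a Spearman correlation of -0.36 over the 81 members, -0.40 over the RAB GTPases and -0.42 over the TBC1D genes, compared with -0.34 over 11571 named genes. These are descriptions across genes that share both arrays, with no test. Within the paralog groups, the longer gene was the lower in 15 of 21 pairs. These 15 include the complex subunits RAB3GAP2 and RAB3GAP1, whose lengths, 124.161 and 124.105 kb, barely differ. RAB22A (57.8 kb) and RAB31 (154 kb) ran the other way. With the trend on length removed RAB22A still differed by -2.31, while RAB27B and TBC1D5 no longer reached 2-fold, at -0.94 and -0.92, and RAB6B passed it, at 1.04. What length stands for in these values was not tested.

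**Figure D4:**
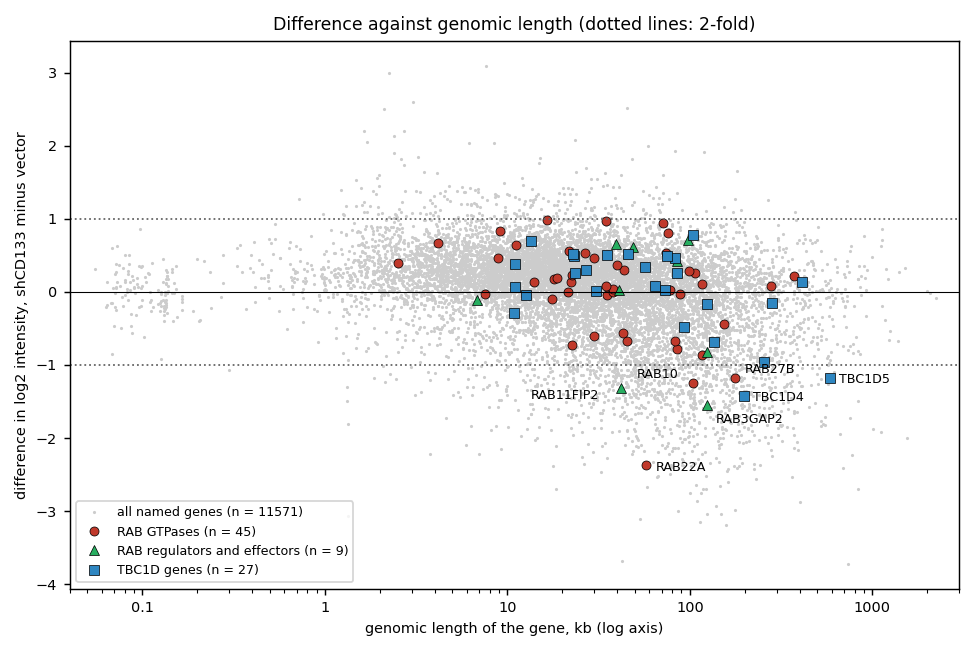
Difference in log2 intensity, shCD133 minus vector, against genomic length on a log axis, for the 3 classes of members over all named genes (grey). The 7 labelled members below the lower 2-fold line are all 42.0 kb or longer.

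Beyond the members, 109 genes of the RAB cycle were listed and 87 had a value, with a median difference of 0.04. Of these, 11 (12.6%) were at least 2-fold lower and 1 was higher, beside backgrounds of 8.26% and 2.08%. The 87 genes had a median length of 53.3 kb, against 27.4 kb for all named genes. Of named genes of 29.9 to 78.2 kb 10.0% were 2-fold lower, and of those of 82.7 to 585 kb 19.7% were. The exchange factors, of median length 87.2 kb, held 5 of the lower genes among 29. They were DENND5B (-1.88), the RAB5 factors GAPVD1 (-1.88) and RABGEF1 (-1.26), the RAB10 factor DENND4C (-1.64), and SBF2 (-1.20). The other RABGEF1 probe differed by -0.22 only. All 5 lay under 8 on the shCD133 array, where differences are compressed. Effectors held 4 among 30: EHBP1 (-2.14), which couples RAB8 and RAB10 to actin, the RAB35 effector ACAP2 (-1.95), the RAB5 effector RABEP1 (-1.46) and the inositol phosphatase OCRL (-1.36). The other OCRL probe differed by -0.86. Among other GAPs with a TBC domain, EVI5 (-1.56) and RABGAP1 (-1.27) were lower, and GRTP1 was higher by 1.15, but by 0.27 only on its other probe. None of the 13 measured TRAPP complex genes was 2-fold different, and their median was 0.27. The machinery that prenylates RABs and extracts them from membranes also stayed within 2-fold (6 genes), with the dissociation inhibitor GDI2 at -0.87 and the prenylated RAB acceptor RABAC1 at 0.88.

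The partners are set beside their GTPases here, in groupings chosen after the values had been seen. Any count here is to be read against the backgrounds of 8.26% of all named genes and 19.7% of those in the longest range, 82.7 to 585 kb. RAB10 was lower, as were 3 of its 6 measured partners, namely EHBP1, DENND4C and TBC1D4, and 4 of the 6 are at least 82.7 kb long. The other 3 did not reach 2-fold, and they were DENND4A (-0.44), DENND4B (0.36) and EHBP1L1 (0.43). For RAB5, whose 3 forms lay above 0, 3 of 12 partners were 2-fold lower, and 8 of the 12 are at least 82.7 kb long. Among these 3 was RABGEF1, which differed by -0.22 only on its other probe. Of the 12, 10 lay below 0, and these included RIN2 (-0.77), EEA1 (-0.53) and the GAP USP6NL (-0.53). Of all named genes 59.2% lay above 0, but the median difference of those of 82.7 to 585 kb was -0.21. For RAB11 the effectors split as described, and the GAP EVI5 was lower. RAB18 was at 7.72 on both arrays, near the lower end of the scale, where differences are compressed. Of the subunits of its exchange factor, RAB3GAP2 was 2-fold lower and RAB3GAP1 (-0.82) was not. For RAB7A, which differed by -0.04, TBC1D5 alone of 7 partners was 2-fold different. For RAB35 (0.55), the effector ACAP2 was 2-fold lower, and the GAP TBC1D10B, at 0.69, did not reach 2-fold. No partner of RAB27 (4 measured, median 0.41), RAB1 (2 measured) or RAB8 (2 measured) was 2-fold different, although RAB27B itself was lower. The lower partners were long genes, from 104 kb (RABEP1) to 373 kb (EHBP1) outside the members.

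**Figure D5:**
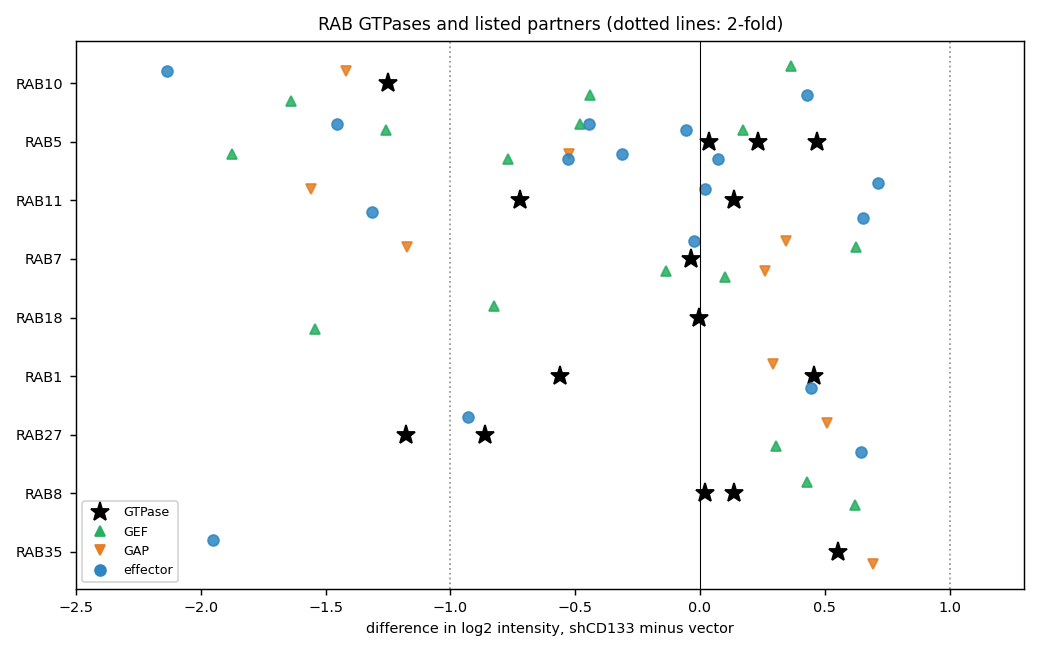
Difference in log2 intensity, shCD133 minus vector, of 9 RAB GTPases or groups of forms (stars) and their listed exchange factors (GEF, upward triangles), GTPase-activating proteins (GAP, downward triangles) and effectors (circles). The RAB10 row holds its GTPase and 3 partners below -1, and the RAB5 row holds its 3 GTPases above 0 with 3 partners below -1.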

How the data were processed

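Huh7 RNA was read on Illumina bead arrays, 1 for shCD133 and 1 for vector, so array number limits precision. The deposited log2 intensities were used; their log base was read as 2 from their range (6.65 to 15.6). Per the submitters' processing notes GenomeStudio 2011.1 was used, with no role given. At every rank the sorted arrays differed by at most 0.00044, as after quantile normalization, which spreads any change of most genes in 1 direction over the others. Of 47323 probes 19665 had a value. The sources used here do not give the filter behind empty entries. A deposited table of non-normalized signals has value columns that match neither sample (2 signal columns) and was not used, so no detection calls were available.

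Probes were named from a 2016 platform annotation (15205 with 1 symbol). All 81 member symbols matched the RefSeq table of GRCh38.p14, which gave genomic spans as gene length. The planned array comparison used no test. Members and lists were chosen with earlier results of these data known. Named genes were all members at least 2-fold different, the 3 largest differences per role, those beside the threshold and paralogs, and the largest of the pathway list. Trends were removed with lowess (statsmodels 0.14.6, fraction 0.3). Scripts were tested on simulated data. The motifs and partner groupings were chosen after values were seen.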

Additional observations from a re-analysis of the deposited data

How the results depend on the processing

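No paired analysis was possible because there is 1 array per group. No member at least 2-fold lower changed sign under any alternative tried. The alternatives enlarge these values or move them too little to reverse them, so the kept sign is no support. RAB27B and TBC1D5 no longer reached 2-fold with the trend on gene length removed. With the 81 differences centred on the median gene, 8 members (9.88%) were 2-fold lower, beside 10.1% of all named genes. Once the level trend was taken out 9 members (11.1%) were lower, beside 10.3% of all named genes. With the trend on gene length removed 5 were lower and 1 was higher, with a constant background subtracted 11 were lower and 5 higher (RAB17, RAB33A, RAB37, RAB43 and RAB6B), and at 1.5-fold 16 were lower and 12 higher. For comparison, of all named genes 12.4% were lower and 5.36% higher with background subtraction, and 7.98% and 1.64% with the length trend removed. At 1.5-fold these shares of all named genes were 16.3% and 12.3%. With the mean over probes 7 members (8.64%) remained lower and none was higher, beside 7.05% and 1.93% of all named genes.

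Centring took the median difference to 0.0183 for all members, 0.0236 for RAB GTPases, 0.0183 for TBC1D genes and -0.0703 for the pathway genes outside the rule. Taking out the level trend gave 0.0334 for all members, 0.0371 for RAB GTPases, 0.0334 for TBC1D genes and -0.0711 for the pathway genes. Without genes under a mean level of 8 the median was 0.19 for all members and 0.29 for TBC1D genes. At that setting 5 of the 62 members left were lower, as were 900 named genes. The number of named genes left is not given here, so the 2 shares cannot be compared. Leaving out the TBC1D3 copies took the TBC1D median to 0.26. Pathway genes outside the rule at least 2-fold higher numbered 0 with the mean over probes, 0 with the level trend removed, 2 with the length trend removed, 6 with background subtraction and 13 at 1.5-fold, where 19 were lower. With the mean over probes RAB43 differed by 0.55 and RAB3IP by -0.19. Of the members, 19 had a mean level under 8, where differences are compressed.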
